A study of Homo sapiens with 14 samples.

Results

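The histone genes described here were taken from the probe sets of a human HG-U133 Plus 2.0 array that carry a single gene symbol beginning with HIST1 to HIST4 or with H1-, H2AC, H2BC, H3C or H4C. They came to 58 of the 54613 probe sets analysed and stood for 50 gene symbols, of which 42 lie on chromosome 6. RNA was from LY2, an anti-estrogen resistant breast cancer line derived from MCF-7, so that every sample came from 1 cell line. Cells were transfected with 40 nM siRNA against SRC-1, the steroid receptor coactivator encoded by NCOA1, or with a scrambled control siRNA at the same concentration. After 24 h they received 100 nM 4-hydroxytamoxifen, an active metabolite of tamoxifen, or the ethanol vehicle, for 2 h. The 4 groups were control siRNA untreated (4 arrays), control siRNA with tamoxifen (4 arrays), SRC1 siRNA untreated (4 arrays) and SRC1 siRNA with tamoxifen (2 arrays, labelled replicates 1 and 3). All groups shared a culture history: growth in medium with 10 nM 4-hydroxytamoxifen, followed by 72 h without it. The series' title and design place the question in how SRC-1 regulates genes in endocrine-resistant breast cancer cells.

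Replication-dependent histone genes encode the H2A, H2B, H3 and H4 proteins of the nucleosome core and the H1 linker histones, and most of them sit in gene clusters. Their messages are made mainly in S phase, when new DNA needs packing, and end in a stem-loop bound by SLBP in place of a poly(A) tail. Some of them, H2BC5, H2BC21 and H1-2 among them, are known to give polyadenylated messages as well, and such forms can be made outside S phase. The labels name the amplification kit but not its primers, and the part of each signal that came from polyadenylated messages was not tested.

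The sequences upstream of 4 of the genes are shown first, because these core H2B genes and this linker H1 gene had the largest changes of their classes among the brighter probe sets that passed in untreated cells. Each is the 250 bases before the RefSeq transcript start in GRCh38.p14, read 5′ to 3′ in the direction of the gene. Capitals mark exact matches, on either strand, to 4 motifs: the octamer ATTTGCAT, the CCAAT box (CCAAT), the TATA box (TATAAA) and, in H1-2, the H1 box (AAACACA).
H2BC5 (chr6:26157871-26158120, plus strand): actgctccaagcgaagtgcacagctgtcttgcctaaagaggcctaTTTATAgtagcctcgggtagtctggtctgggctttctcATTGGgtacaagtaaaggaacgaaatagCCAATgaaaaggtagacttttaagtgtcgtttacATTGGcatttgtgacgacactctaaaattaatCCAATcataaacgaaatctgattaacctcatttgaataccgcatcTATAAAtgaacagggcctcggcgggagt
H2BC11 (chr6:27132796-27133045, minus strand): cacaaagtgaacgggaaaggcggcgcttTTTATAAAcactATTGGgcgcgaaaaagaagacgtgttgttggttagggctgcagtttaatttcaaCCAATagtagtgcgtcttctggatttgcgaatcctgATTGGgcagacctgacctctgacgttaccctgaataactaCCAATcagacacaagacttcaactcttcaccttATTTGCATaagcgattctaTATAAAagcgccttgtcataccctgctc
H2BC17 (chr6:27893175-27893424, plus strand): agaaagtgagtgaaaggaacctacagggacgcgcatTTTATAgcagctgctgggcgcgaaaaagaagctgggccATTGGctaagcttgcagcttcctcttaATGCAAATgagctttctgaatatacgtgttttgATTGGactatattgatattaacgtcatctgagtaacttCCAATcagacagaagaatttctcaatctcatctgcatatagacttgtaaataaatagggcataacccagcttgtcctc
H1-2 (chr6:26056471-26056720, minus strand): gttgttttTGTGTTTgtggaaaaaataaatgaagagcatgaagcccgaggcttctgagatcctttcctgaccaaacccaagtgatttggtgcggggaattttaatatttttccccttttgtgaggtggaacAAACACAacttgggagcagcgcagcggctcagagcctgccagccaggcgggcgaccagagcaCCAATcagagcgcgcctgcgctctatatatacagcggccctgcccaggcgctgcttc
In H2BC11 the octamer began 47 bases before the start and the nearest TATA box 28 bases before it. H2BC17 held the octamer on the opposite strand, at 149 bases, and no TATAAA on its own strand. H2BC5 held no exact octamer, and it had 4 CCAAT boxes and a TATA box 28 bases before its start. H1-2 held the H1 box at 119 bases and a CCAAT box at 57 bases.

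Windows of this length were at hand for 43 of the 50 symbols. The octamer was in 16 of the 43 (37.2%) and in 1.68% of all 27305 promoters of the same length. It was in 10 of 13 H2B windows and 6 of 8 H2A windows, and in 0 of the 9 H1, 6 H3 and 7 H4 windows. Some of these were counted for both genes of a divergent H2A and H2B pair, whose windows overlap. The CCAAT box was in 86.0% of member windows against 32.9% of all promoters, and the TATA box in 65.1% against 11.3%. The H1 box was in 7 of 9 H1 windows and in 4.96% of all promoters. A match is a match of letters only.

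Signals are log2 values as deposited, and a change is the difference of group means on that scale. A probe set is called dim here where its mean over the 14 arrays lay below 3.47, the median of all probe sets. Near the floor of the scale, at about 2, differences are compressed. Of the 58 histone probe sets, 31 were not dim: 3 of 13 for H1, 9 of 11 for H2A, 10 of 15 for H2B, 4 of 8 for H3 and 5 of 10 for H4. The 58 comprised 46 probe sets of replication-dependent genes, 7 of germ-line histones (H1-6, H1-7, H1-8 and H2BC1), 3 of pseudogenes, 1 of the antisense RNA H1-10-AS1, and 1 of H1-10, a linker histone made outside replication. The germ-line, pseudogene and antisense probe sets were all dim. Another 20 probe sets carried several histone symbols, from 2 to 14, and are kept apart from the 58. Probe sets whose names end in _x_at or _s_at can bind more than 1 transcript, which for these near-identical genes leaves the source of the signal uncertain.

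Across the series, array medians lay between 3.44 and 3.51. NCOA1 averaged 9.00 ± 0.25 (SD, n = 4) over its 4 probe sets in untreated control cells and 7.70 ± 0.36 (n = 4) in untreated SRC1-siRNA cells (exact permutation test, two-sided, p = 0.0286, the lowest possible among 70 regroupings). In tamoxifen-treated cells the means were 9.06 ± 0.18 (n = 4) and 7.74 ± 0.25 (n = 2), where the exact p of 0.133 is the smallest possible. Markers of luminal breast epithelium were above the median on 10 of 10 genes, while 7 of 8 fibroblast, 4 of 5 immune and 5 of 5 endothelial markers were dim, with COL1A1 and LYZ the exceptions. The labels call the replicates biological and say nothing of separate cultures, so p-values measure the spread between these arrays. Arrays that share a replicate number did not deviate together, yet the means of the 4 numbers were closer than independent arrays would give: for 77.8% of all probe sets and 69% of histone ones, the F statistic of the number was below the value that 5% of null statistics fall under. For that reason counts are also given from a fit that has the number as a term, called the replicate term below. In bulk RNA, fewer cells expressing a gene and less RNA per cell cannot be told apart.

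In untreated cells the SRC-1 knockdown came with higher histone signals. Of the 58 probe sets, 15 rose and 0 fell (limma, adjusted p under 0.05 over all probe sets), a share of 25.9%. Over all 54613 probe sets 4.99% rose and 5.36% fell. With the replicate term 5 histone probe sets rose and 0 fell, against 1.97% of all in each direction. Of these, 3 were not dim, both probe sets of H2BC5 and that of H2BC11. The other 2, of H2BC14 and H3C2, were dim. The median change was 0.13 for the histone probe sets and -0.00 for all probe sets, and 46 of the 58 changes were above 0. Among the 31 that were not dim, 12 rose and 0 fell, against 7.32% higher and 8.81% lower of all probe sets that are not dim, and the median change was 0.25. Among the 27 dim ones 3 (11.1%) rose, where 4.99% of all probe sets, dim or not, rose. The changes of the members that did not pass ran from -0.10 to 0.64. In 19 of the 58 every SRC1-siRNA array lay above every control array and in 0 below; over all probe sets those shares were 7.92% and 8.31%.

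Core histone H2B gave the largest number of calls, with 7 of 15 probe sets higher and a median change of 0.27. H2A followed with 4 of 11 (median 0.25) and H1 with 3 of 13 (median 0.11). H3 gave 1 of 8 and H4 0 of 10. Of the H4 probe sets 4 had an unadjusted limma p under 0.05, against 13857 of all 54613, and the H4 median was 0.14. With the replicate term 4 H2B probe sets and 1 H3 probe set rose, and 0 of H1, H2A or H4. None of the 11 germ-line, pseudogene and antisense probe sets was called, and 1 had an unadjusted p under 0.05. Whether the classes differ from each other was not tested.

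**Figure D1:**
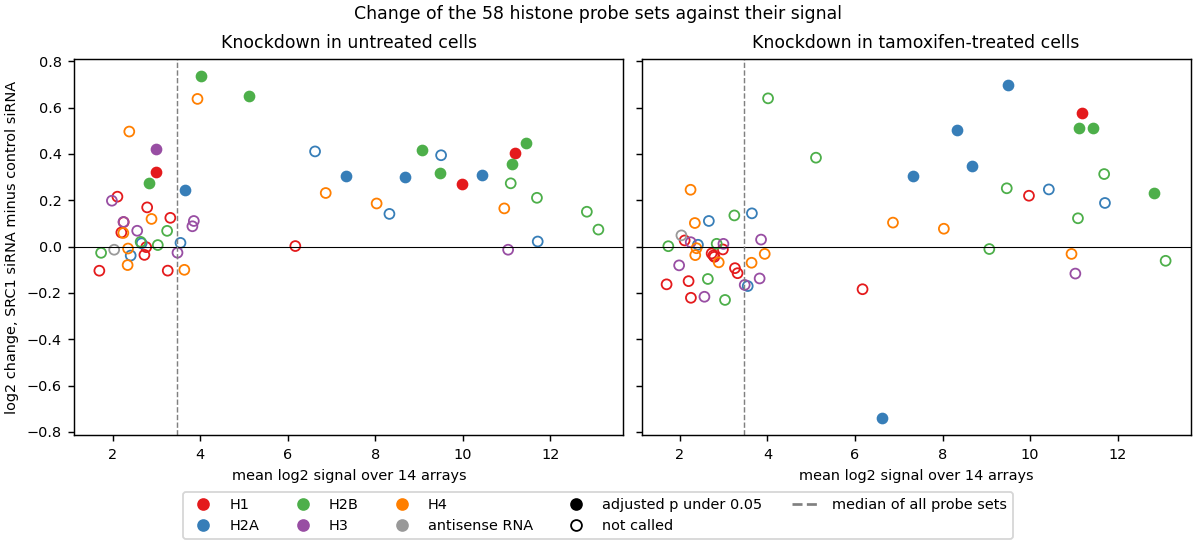
Log2 change on SRC-1 knockdown (vertical) against mean log2 signal over 14 arrays (horizontal) for the 58 histone probe sets, in untreated (left) and tamoxifen-treated cells (right); colours give the histone class, filled points passed at adjusted p under 0.05 and the dashed line is the median of all probe sets, 3.47. In untreated cells 15 filled points lie above 0 and none below, whereas with tamoxifen 8 lie above 0 and 1, a probe set of H2AC15, lies below.

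H2BC5, a core H2B gene known to give polyadenylated messages, had 2 probe sets and rose on both. Both names end in _x_at, so either signal may include other transcripts. On 209911_x_at the untreated control arrays read 11.32, 11.29, 11.37 and 11.08, and the untreated SRC1-siRNA arrays 11.80, 11.73, 11.52 and 11.81. The highest control array lay below the lowest knockdown array. The change was 0.45 ± 0.08 (SE), or 1.37-fold, with an adjusted p of 0.00318 from limma and 0.0242 with the replicate term. On 222067_x_at the control arrays read 11.10, 11.03, 11.01 and 10.97 and the knockdown arrays 11.55, 11.49, 11.25 and 11.24. Again the groups did not overlap, and the change was 0.36 ± 0.08 (limma, adjusted p = 0.0103, and 0.0492 with the replicate term).

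H2BC11, a core H2B gene, read 4.96, 4.80, 4.83 and 4.52 in control cells and 5.35, 5.65, 5.35 and 5.37 in knockdown cells. All knockdown arrays were above all control arrays, and the second replicate stood highest. Its change of 0.65 ± 0.11, or 1.57-fold, passed with and without the replicate term (limma, adjusted p = 0.00344, and 0.0223 with the term). H2BC17, whose upstream window overlaps that of the H2A gene H2AC17, read 3.48, 3.47, 3.89 and 3.79 in control cells. Its knockdown arrays read 4.77, 4.45, 4.36 and 4.00, so that the fourth replicate lay close to the highest control array. This was the largest change of any histone probe set that passed, 0.74 ± 0.17 or 1.67-fold (limma, adjusted p = 0.0143), and it was not called with the replicate term (adjusted p = 0.0582).

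H2BC4, another core H2B gene with known polyadenylated messages, differed less evenly. Its control arrays read 9.04, 8.91, 8.55 and 8.69 and its knockdown arrays 9.21, 9.03, 9.37 and 9.26. The groups overlapped, since the first control array was just above the second knockdown array. The change was 0.42 ± 0.10 (limma, adjusted p = 0.0191, and 0.0662 with the replicate term). H2BC9, on an _x_at probe set, rose by 0.32 ± 0.08 (adjusted p = 0.0265, and 0.103 with the replicate term), from 9.10 to 9.39 in control arrays to 9.42 to 9.70 in knockdown arrays. H2BC14 was dim and rose by 0.27 ± 0.05 (adjusted p = 0.00578, and 0.0482 with the replicate term). Its control arrays read 2.60 to 2.80 and its knockdown arrays 2.93 to 2.98, near the floor.

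Some H2B genes did not pass in untreated cells. H2BC21, a core H2B gene on chromosome 1, read 12.86, 12.82, 12.79 and 12.76 in control cells and 13.05, 12.99, 12.96 and 12.82 in knockdown cells. Only the fourth knockdown array fell within the control range, and the change of 0.15 ± 0.05 did not pass (limma, adjusted p = 0.103). H2BC12, the H2B member with the highest signal, changed by 0.07 (adjusted p = 0.27).

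Among H2A genes, H2AC14 read 7.22, 7.17, 7.31 and 7.18 in control cells and 7.72, 7.52, 7.44 and 7.42 in knockdown cells, without overlap. It rose by 0.30 ± 0.07 (limma, adjusted p = 0.0205). H2AC8 rose by the same 0.30 ± 0.08 (adjusted p = 0.0229), from 8.73, 8.59, 8.52 and 8.47 to 9.09, 8.89, 8.74 and 8.79. Here too the lowest knockdown array was above the highest control array. H2AC25, which lies apart from the chromosome 6 genes on chromosome 1, rose by 0.31 ± 0.08 on 221582_at (adjusted p = 0.0276), and H2AC4 by 0.25 ± 0.06 (adjusted p = 0.0178). H2AC6, the H2A member with the highest signal, changed by 0.02. With the replicate term 0 H2A probe sets passed.

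The linker histone H1-2 read 11.07, 10.97, 11.13 and 10.88 in control cells and 11.60, 11.64, 11.23 and 11.20 in knockdown cells. Replicates 1 and 2 of the knockdown stood well above the rest, and replicates 3 and 4 just above the control range. The change was 0.40 ± 0.11, or 1.32-fold (limma, adjusted p = 0.0378, and 0.118 with the replicate term). H1-10, the linker histone made outside replication, rose by 0.27 ± 0.06 (adjusted p = 0.00921), from 9.83, 9.77, 9.87 and 9.89 to 10.03, 10.14, 10.19 and 10.07. H1-4 was dim and rose by 0.32 ± 0.07 (adjusted p = 0.00875), from 2.64 to 2.89 in control arrays to 3.03 to 3.12 in knockdown arrays.

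H3C2, a core H3 gene, had the smallest adjusted p of the histone probe sets but a dim signal. The control arrays read 2.71, 2.77, 2.79 and 2.71, and the knockdown arrays 3.21, 3.15, 3.19 and 3.13. Both groups were tight and well separated, at signals below the median of all probe sets, on a probe set whose name ends in _s_at. The change was 0.42 ± 0.05 (limma, adjusted p = 3.76e-04, and 0.00739 with the replicate term). H3C6, whose 236278_at has the highest signal of the H3 class, changed by -0.01 there. Of the H4 class, H4C8 changed by 0.16 on its brighter probe set (adjusted p = 0.14). H4C5, chosen here after its values were seen, had the largest H4 change, 0.64 ± 0.19 (adjusted p = 0.0519), with overlapping groups.

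**Figure D2:**
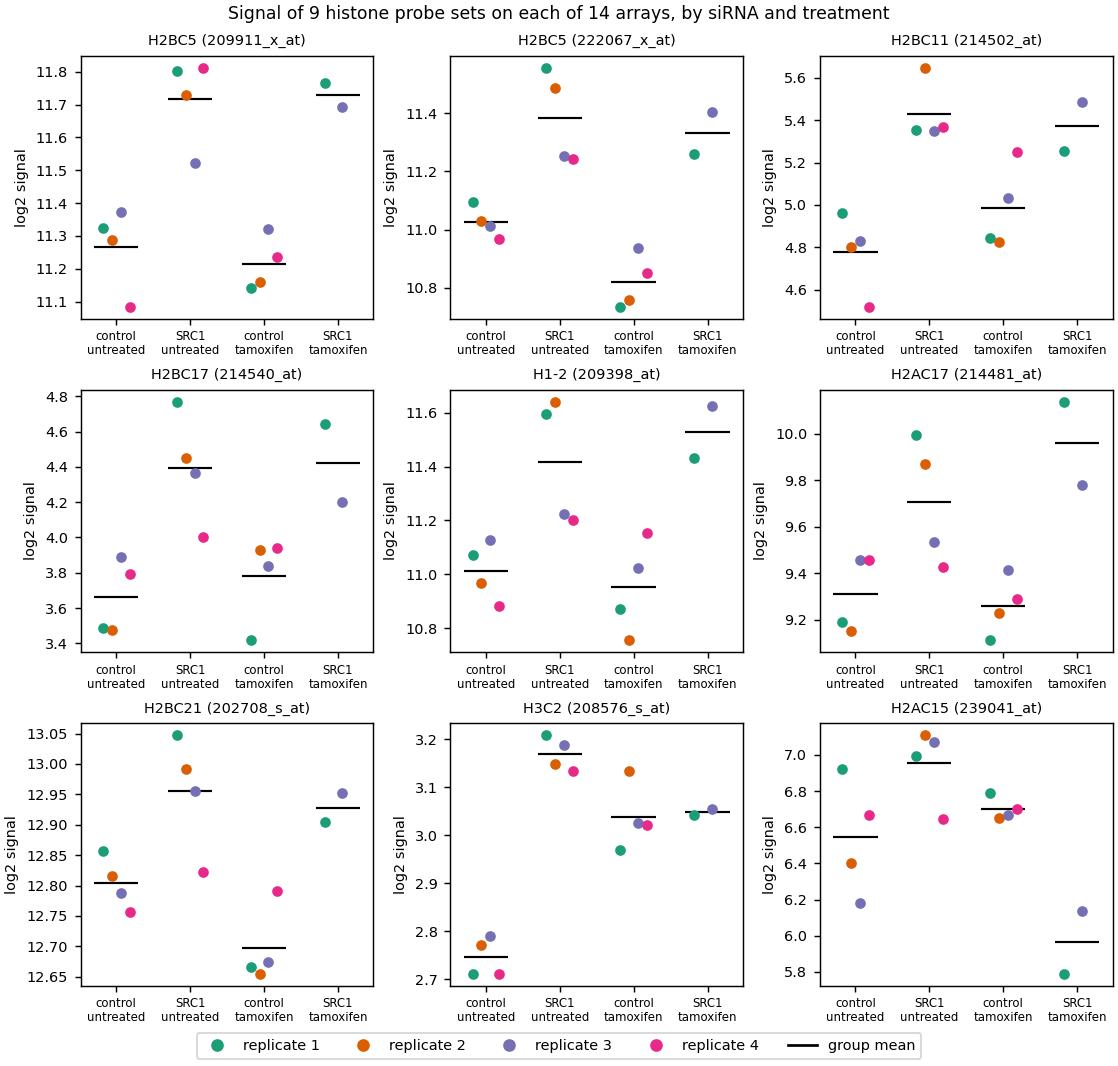
Log2 signal (vertical) of 9 histone probe sets on each of 14 arrays, grouped by siRNA and treatment (horizontal); points are arrays coloured by replicate number and bars are group means. The H2BC5 panels show both SRC1-siRNA groups above both control groups, H3C2 shows the untreated control arrays below all others at 2.71 to 2.79, and H2AC15 shows the tamoxifen-treated knockdown arrays lowest, at 5.79 and 6.14.

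H2AC15, a core H2A gene, had 2 probe sets that disagreed. On 214644_at it was dim and changed by -0.04 in untreated cells. On 239041_at the control arrays read 6.92, 6.40, 6.18 and 6.67 and the knockdown arrays 7.00, 7.11, 7.07 and 6.64. Replicates 2 and 3 accounted for the higher mean, the ranges overlapped, and the change of 0.41 ± 0.14 did not pass (limma, adjusted p = 0.0888).

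Taken by replicate number, the difference between untreated knockdown and control arrays was above 0 for all 4 numbers in 25 of the 58 histone probe sets, against 11.9% of all probe sets. All 15 that rose were among the 25, but they had been called on these same arrays. Where every knockdown array lies above every control array, each difference is above 0 whatever the numbering. The median difference of the 58 was 0.14 for number 1, 0.22 for number 2, 0.09 for number 3 and 0.12 for number 4, so number 3 gave the smallest. For H2BC5 on 209911_x_at the differences were 0.48, 0.44, 0.15 and 0.73. For H2BC11 they were 0.39, 0.85, 0.52 and 0.85, and for H3C2 0.50, 0.38, 0.40 and 0.42. H2BC17 varied most among the 15, from 1.29 for number 1 to 0.21 for number 4.

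**Figure D3:**
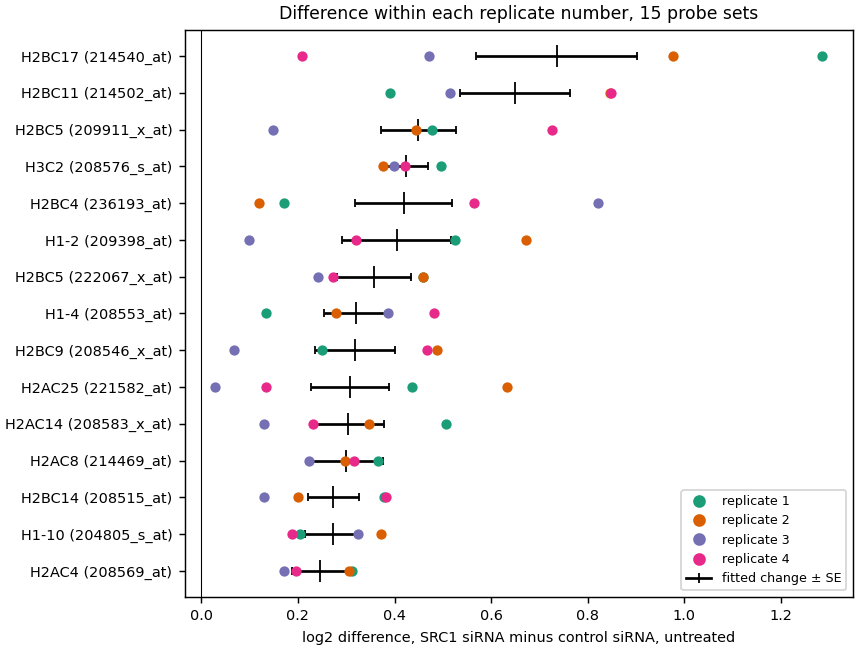
Log2 difference between untreated SRC1-siRNA and control arrays of the same replicate number (horizontal) for the 15 histone probe sets that rose; coloured points are the 4 numbers and the black mark is the fitted change ± SE. All points lie above 0, for probe sets that were called as higher on these same arrays. H3C2 is the tightest of the named genes, from 0.38 to 0.50, and H2BC17 the widest, from 0.21 to 1.29.

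Which arrays enter mattered for the number of calls. Leaving out control replicate 2 or SRC1-siRNA replicate 1 of the untreated arrays gave 9 calls in place of 15. Without all arrays of number 1, 2 or 3 the counts were 9, 5 and 9. H3C2, H2BC5 on 209911_x_at and H2BC11 passed in every alternative in which they were tested. H1-2 did not pass without untreated control replicate 1, 2 or 4 or knockdown replicate 1 or 2, nor did H2AC8 without control replicate 2, 3 or 4 or knockdown replicate 1 or 2. H2BC9 and H2AC25 each lost the call without knockdown replicate 1 or 2 or control replicate 2, as H2BC9 did without control replicate 4 and H2AC25 without control replicate 1. H2AC4 and H2AC14 lost it without control replicate 2 or knockdown replicate 1, H2AC14 also without control replicate 4. H2BC4 lost it without control replicate 4 or knockdown replicate 3.

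The other probe sets of the family, those shared by several histone genes, gave the same direction. In untreated cells 7 of 20 (35%) rose and 0 fell, against 4.99% of all probe sets higher and 5.36% lower. All 20 changes were above 0 and their median was 0.27. With the replicate term 1 rose, against 1.97% of all. Many of their symbols are also members, so they are not independent of the 58. Probe sets 218279_s_at and 218280_x_at, shared by H2AC18 and H2AC19, rose by 0.38 ± 0.09 and 0.56 ± 0.12 (limma, adjusted p = 0.0194 and 0.0125). A probe set shared by H2BC11 and H2BC8 rose by 0.45 ± 0.11 (adjusted p = 0.0202), and 3 probe sets shared by the H2B genes H2BC4, H2BC6, H2BC7, H2BC8 and H2BC10 rose by 0.22, 0.27 and 0.31. The remaining one, shared by H4C6 and H4C7, rose by 0.30. These signals cannot be assigned to 1 gene each.

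With tamoxifen present, 8 histone probe sets rose on knockdown and 1 fell. The background was 5.76% of all probe sets higher and 7.7% lower. All 9 were among the 31 that are not dim, of which 25.8% rose, against 7.86% higher and 11.5% lower of all such probe sets. The median change of the 58 was 0.01, with 31 above 0, and of the 31 that are not dim 0.14. With the replicate term 0 passed in either direction, against 1.11% of all higher and 1.14% lower. In the limma fit without it, 20 of the 58 and 15946 of all 54613 probe sets had an unadjusted p under 0.05. The 2 SRC1-siRNA arrays lay above every control array for 18 histone probe sets and below for 6, against 14.9% and 21.1% of all. This comparison rests on those 2 arrays: leaving out replicate 1 left 1 higher call and 0 lower, and leaving out replicate 3 left 3 higher. The 1 array then left in the group is assumed to vary like those of the other groups. The 1 that remained without replicate 1 was H2BC5 on 222067_x_at. Without replicate 3 the calls of H1-2, H2AC25, H2AC8, H2BC21 and H2AC14 were lost. Leaving out control replicate 1 or 2 of the tamoxifen-treated arrays left 5 higher, and H2AC8, H2BC21 and H2AC14 lost their calls in both cases. H2BC21 and H2AC14 were not called either without treated control replicate 3 or untreated control replicate 2, nor H2AC14 without treated control replicate 4, untreated control replicate 1 or 4 or untreated knockdown replicate 2.

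H2BC5 rose on both probe sets here also. On 209911_x_at the tamoxifen-treated control arrays read 11.14, 11.16, 11.32 and 11.24 and the knockdown arrays 11.76 and 11.69, without overlap. The change was 0.51 ± 0.09 (limma, adjusted p = 0.00489). On 222067_x_at the readings were 10.74, 10.76, 10.94 and 10.85 against 11.26 and 11.40, and the change was again 0.51 ± 0.09 (adjusted p = 0.00458). H2BC21 rose by 0.23 ± 0.07 (adjusted p = 0.038), from 12.67, 12.65, 12.67 and 12.79 to 12.90 and 12.95. Its highest control array, replicate 4, stayed below both knockdown arrays.

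H1-2 rose by 0.58 ± 0.14 with tamoxifen (limma, adjusted p = 0.0172). Its control arrays read 10.87, 10.76, 11.02 and 11.15 and its knockdown arrays 11.43 and 11.62, without overlap. H2AC17 rose by 0.70 ± 0.16, or 1.62-fold (adjusted p = 0.0128), from 9.11, 9.23, 9.41 and 9.29 to 10.14 and 9.78. In untreated cells H2AC17 had changed by 0.39 and did not pass, with 9.19, 9.15, 9.46 and 9.46 in control cells and 10.00, 9.87, 9.54 and 9.43 in knockdown cells. H2AC25 rose by 0.51 ± 0.13 on its other probe set, 231681_x_at (adjusted p = 0.0205), H2AC8 by 0.35 ± 0.09 (adjusted p = 0.0262) and H2AC14 by 0.30 ± 0.09 (adjusted p = 0.0427).

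The probe set that fell was 239041_at of H2AC15. Tamoxifen-treated control arrays read 6.79, 6.65, 6.67 and 6.70, and the knockdown arrays 5.79 and 6.14. Both knockdown arrays lay below every other array of the series. The change was -0.74 ± 0.18 (limma, adjusted p = 0.0163, and 0.0737 with the replicate term), and it did not pass without SRC1-siRNA replicate 1. The dim probe set of the same gene, 214644_at, changed by 0.01. Of the shared probe sets 4 of 20 rose with tamoxifen, against 5.76% of all probe sets, including both of H2AC18 and H2AC19 (0.54 ± 0.11 and 0.65 ± 0.15). The replicate term left 0 of these 4 calls.

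Tamoxifen itself, over 2 h, gave few calls for these genes. In control-siRNA cells 12 of 58 histone probe sets and 8585 of all 54613 had an unadjusted limma p under 0.05, and the histone median change was 0.04. Of the 58, 1 rose and 0 fell, against 0.0714% and 0.0916% of all. The 1 was H3C2, which rose by 0.29 ± 0.05 (limma, adjusted p = 0.0382), its tamoxifen-treated control arrays reading 2.97, 3.13, 3.03 and 3.02. It was not called with the replicate term (adjusted p = 0.349), and of the fits that leave out 1 array, those without treated control replicate 1 or untreated knockdown replicate 1 or 3 kept the call. In SRC1-siRNA cells 9 of the 58 and 9178 of all 54613 had an unadjusted limma p under 0.05, and the histone median change was -0.04. Of the 58, 0 rose and 1 fell, against 0.905% and 0.604% of all. The 1 was H2AC15 on 239041_at, which fell by 0.99 ± 0.18 on the log2 scale (adjusted p = 0.0201, and 0.169 with the replicate term), a call lost without treated knockdown replicate 1. The groups did not overlap for 5 histone probe sets higher and 3 lower in control-siRNA cells (4.95% and 3.91% of all), and for 2 higher and 13 lower in SRC1-siRNA cells (10.8% and 13.6%). The comparisons share arrays: the same control or knockdown arrays enter the tamoxifen and the knockdown contrasts.

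The knockdown change was also tested for a difference with tamoxifen. An unadjusted limma p under 0.05 was found for 12 of the 58 and 9444 of all 54613 probe sets. After adjustment 0 histone probe sets were higher and 1 lower, against 0.134% and 0.146% of all. The 1 was H3C2, whose change was lower with tamoxifen by 0.41 ± 0.07 (limma, adjusted p = 0.0392, and 0.426 with the replicate term): it was 0.42 without tamoxifen and 0.01 with it. Its knockdown arrays with tamoxifen read 3.04 and 3.06, within the range of the tamoxifen-treated control arrays. Leaving out any 1 array ended this call, except for replicate 1 of the tamoxifen-treated control group. For H2AC15 on 239041_at the difference of the changes was -1.15 ± 0.23 and did not pass (adjusted p = 0.0553). The dim members H1-4 and H2BC14 had their lowest mean in untreated control cells too, at 2.76 and 2.69, and the differences of their changes, -0.33 and -0.26, did not pass (adjusted p = 0.149 and 0.15).

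**Figure D4:**
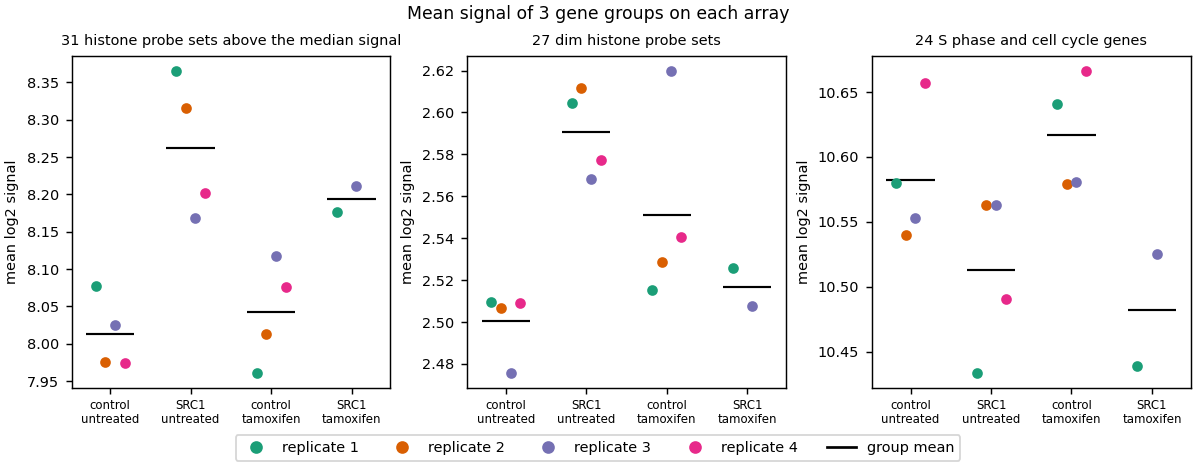
Mean log2 signal on each array (vertical) of the 31 histone probe sets that are not dim, the 27 dim ones and 24 S phase and cell cycle genes, by siRNA and treatment (horizontal); points are arrays coloured by replicate number and bars are group means, with a different vertical range in each panel. The mean of the 31 was 8.01 and 8.04 in the control groups and 8.26 and 8.19 in the SRC1-siRNA groups, while the S phase mean was 10.58 and 10.62 in control groups and 10.51 and 10.48 in the SRC1-siRNA groups.

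Averaged per array, the 31 histone probe sets that are not dim gave 8.01 ± 0.05 (SD, n = 4) in untreated control cells and 8.26 ± 0.09 (n = 4) in untreated knockdown cells. With tamoxifen they gave 8.04 ± 0.07 (n = 4) and 8.19 ± 0.02 (n = 2). In both settings every knockdown array lay above every control array. The dim members gave 2.50, 2.59, 2.55 and 2.52 in the untreated control, untreated knockdown, treated control and treated knockdown groups.

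Histone messages are made mainly in S phase, so 24 genes of S phase and the cell cycle were counted as well. Of 24, 0 rose and 2 (8.33%) fell in untreated cells, where 4.99% of all probe sets were higher and 5.36% lower, or 7.32% and 8.81% of those that are not dim. The median change was -0.05, and the 2 were the replicative helicase subunit MCM6 (-0.22 ± 0.05, limma adjusted p = 0.0198) and RRM1, a ribonucleotide reductase subunit (-0.25 ± 0.07, adjusted p = 0.0321). With tamoxifen 0 rose and 6 (25%) fell, against 7.7% lower of all probe sets and 11.5% of those that are not dim (median -0.16): MCM6 (-0.25), RRM1 (-0.28), the thymidylate synthase TYMS (-0.23), the origin licensing factor CDC6 (-0.43), the helicase-associated GINS2 (-0.23) and the kinase CDK2 (-0.30). With the replicate term 0 of the 24 passed in either setting. The part of these changes in the histone signals was not tested.

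The factors that transcribe histone genes and cut their messages were measured for 15 of 16 genes. In untreated cells 0 rose and 1 (6.67%) fell (median -0.04), against 7.32% higher and 8.81% lower of all probe sets that are not dim. ZNF473, a component of the machinery that processes the 3′ ends of histone messages, fell by 0.42 ± 0.07 on the log2 scale (limma, adjusted p = 0.00263, and 0.0215 with the replicate term). With tamoxifen it changed by -0.29 ± 0.09 (adjusted p = 0.0396), and ERI1, an exonuclease that trims histone stem-loops, by -0.57 ± 0.15 (adjusted p = 0.0281). Of the 15, 0 rose and 13.3% fell in that setting, and the median was -0.04. Of all probe sets that are not dim 7.86% were higher and 11.5% lower there. Neither ZNF473 nor ERI1 passed with the replicate term in the tamoxifen setting.

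Histone chaperones and assembly factors, 19 in all, gave 1 (5.26%) higher and 0 lower in untreated cells (median -0.03). Of all probe sets that are not dim 7.32% were higher and 8.81% lower. The 1 was the H3-H4 chaperone ASF1A (0.21 ± 0.05, limma adjusted p = 0.0154). With tamoxifen 3 rose and 3 fell, 15.8% each way (median -0.01), against 7.86% higher and 11.5% lower of all probe sets that are not dim. CHAF1A, a chromatin assembly factor subunit (0.35), and HIRA (0.34) and UBN1 (0.46), which deposit histones outside replication, rose, and ASF1A (-0.19), the nucleosome assembly protein NAP1L1 (-0.27) and SSRP1 (-0.21), a subunit of the FACT complex, fell. The knockdown change of ASF1A differed with tamoxifen by -0.40 ± 0.08 (adjusted p = 0.0491). None of the 19 passed with the replicate term in these comparisons.

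Variants made outside replication were measured for 9 of 11 genes, 1 of them the member H1-10. In untreated cells 1 rose, H1-10, and 1 fell, the H2A.Z gene H2AZ2 (-0.37 ± 0.09, limma adjusted p = 0.0234), and the median was 0.01. Each was 11.1% of the 9, against 7.32% higher and 8.81% lower of all probe sets that are not dim. With tamoxifen H2AJ rose (0.43 ± 0.09, limma adjusted p = 0.01), and H2AZ2 (-0.52 ± 0.11) and MACROH2A2 (-0.23 ± 0.06) fell, with a median of -0.06. The shares there were 11.1% higher and 22.2% lower, against 7.86% and 11.5% of all probe sets that are not dim. The replicate term left 0 calls in both settings. None of the genes of these 4 lists passed for tamoxifen in control or in SRC1-siRNA cells.

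Of 6 member genes with known polyadenylated messages, taken by their brightest probe set, 3 rose and 0 fell on knockdown in untreated cells (H1-2, H2BC4 and H2BC5; median 0.28) and 3 rose with tamoxifen (H1-2, H2BC5 and H2BC21; median 0.21). Of all probe sets 4.99% and 5.76% rose in these settings, and the replicate term left 1 and 0 calls of the 6. H2AC6 and H2BC12 passed in neither. Since other members without such a record rose as well, no contrast was drawn between these genes and the rest.

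For 4 pairs of neighbouring H2A and H2B genes the promoter windows overlap on opposite strands, and both genes of 1 pair in 1 setting passed. H2AC14 and H2BC14 both rose in untreated cells, by 0.30 and 0.27, and with tamoxifen changed by 0.30 (called) and 0.01 (not called). H2AC15 and H2BC15 changed by 0.41 and 0.01 in untreated cells (neither called) and by -0.74 (called) and -0.23 (not called) with tamoxifen. H2AC17 and H2BC17 changed by 0.39 (not called) and 0.74 in untreated cells and by 0.70 and 0.64 (not called) with tamoxifen. For H2BC4 and H2AC6 the untreated changes were 0.42 (called) and 0.02 (not called), and those with tamoxifen -0.01 and 0.19 (neither called). Whether the genes of a pair differed from each other was not tested. Among the genes with a window, the octamer was in 8 of the 14 with a probe set that rose in untreated cells and in 8 of the 29 others. Every octamer among them lay in an H2A or H2B window (6 of 8 and 10 of 13), and these classes gave most of the calls. The counts therefore mix the motif with the histone class, and a link between octamer and rise was not tested. H2BC5 was among the genes that rose without an exact octamer in their window, as were those of the H1 and H3 classes.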

How the data were processed

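The authors deposited 1 value per probe set and array, on a log scale taken to be log2 from its range. Per the submitters' processing notes R 2.9.2 was used; the steps of correction and normalization are not stated in any source used. Per the labels' protocols, RNA was treated with DNase and amplified and labelled with NuGEN Ovation kits. Values were used as deposited. Of 54675 probe sets, 62 array controls were left out. Of the 54613 analysed, 41091 carried 1 symbol, 1801 several and 11721 none in the platform annotation.

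Group means of all 14 arrays were fitted with limma 3.58.1 in R 4.3.3, with Benjamini-Hochberg adjustment over all probe sets, two-sided, at 0.05. The code was tested on simulated data. NCOA1 was compared by an exact permutation test. The number of arrays limits the precision, and there is no read depth. Named probe sets are those that passed, H2BC5, H2BC21, H2AC15 and H3C2, the brightest of each class, and list genes that passed at their brightest probe set. The members and lists were chosen with earlier results of these data known, and lists are described by counts and medians only. Some listed genes are not reported here. Alternatives covered scaling, dim probe sets, the replicate number, variance settings and left-out arrays; those that drop kinds of member or probe set names were chosen after seeing the data. Residuals of arrays with the same replicate number correlated between -0.585 and -0.0421 over 18 pairs, none above 0.1. Promoter windows and gene names are from RefSeq.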

Additional observations from a re-analysis of the deposited data

Results flagged for a closer look

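Of 81 groups of 4 arrays examined for a sample far from the other 3, 4 stood out, and chance gives about 4.05 at 1 in 20. Each of them concerned 1 array.

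H2AC14 read 7.02 on tamoxifen-treated control replicate 1, below the nearest other array of its group at 7.22. H2BC11 read 5.65 on untreated SRC1-siRNA replicate 2, above the nearest at 5.37. H2BC21 read 12.79 on tamoxifen-treated control replicate 4, above the nearest at 12.67. H3C6 on 236278_at read 10.95 on untreated control replicate 3, below the nearest at 11.05.

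The knockdown change of the dim probe set of H3C2 differed between tamoxifen-treated and untreated cells by -0.41 (limma interaction, adjusted p = 0.0392, and 0.426 with the replicate term).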

How the results depend on the processing

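The cause of each shift below was not tested unless the setting itself tests fewer probe sets or arrays. No called histone value changed sign, but medians near 0 did: the median knockdown change with tamoxifen, 0.01, was -0.02 with median centring, -0.01 without treated control replicate 1 or all arrays of number 1 and -0.03 without _x_at, _s_at and _a_at probe sets, and that for tamoxifen in control cells, 0.04, was -0.02 over probe sets above the median and -0.01 without number 3. Quantile normalization and median centring kept 15 higher and 0 lower in untreated cells, and scaling moved the median of all probe sets by less than 0.1. With the replicate number as a block, knockdown counts were 5 higher in untreated cells and 0 higher and 0 lower with tamoxifen. In that fit 0 histone probe sets passed for tamoxifen in either siRNA group or the interaction. What the shared numbers stand for is not known from the labels, and whether they pair the arrays was not tested. Only probe sets above the median gave median changes of 0.25 and 0.14 for the knockdown without and with tamoxifen, and 0 calls for tamoxifen in control cells and for the interaction. Median centring gave 0, 2 lower and 2 lower for tamoxifen in control cells, in SRC1-siRNA cells and the interaction. Fits on only the arrays compared gave 0 for tamoxifen in both siRNA groups, and a trended, robust variance gave 2 lower in SRC1-siRNA cells. Without all arrays of number 1, 2 or 3 the untreated counts were 9, 5 and 9, and those with tamoxifen 1, 4 and 2 higher; the lower call went to 0 without number 1 or 2. Without number 1, 2 or 3 the tamoxifen and interaction counts were 0, as were those in control cells and the interaction without number 4. Without _x_at, _s_at and _a_at probe sets, an alternative chosen after seeing the data, counts were 9 and 3 higher, and 0 for tamoxifen in control cells and the interaction. That setting itself removes called members, such as both probe sets of H2BC5 and that of H3C2. Leaving out 1 array at a time gave 9 to 19 higher calls in untreated cells, 1 to 9 higher and 0 to 1 lower with tamoxifen, 0 to 1 for tamoxifen in control cells, 0 to 2 in SRC1-siRNA cells and 0 to 1 for the interaction. NCOA1 then differed by -1.40 to -1.16 untreated, where groups of 4 and 3 arrays allow no exact p below 0.0571, and by -1.50 to -1.15 with tamoxifen (exact p 0.133 to 0.4). Signals near the floor limit what can be read from the 27 dim probe sets.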
